A study of Mus musculus with 12 samples.

Results

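Transforming growth factor beta (TGF-beta) signaling was examined through 9 of its core genes among the 25078 genes in the count table: the ligand Tgfb1, the receptors Tgfbr1 and Tgfbr2, the signal transducers Smad2, Smad3 and Smad4, the inhibitory Smad7, and the co-repressors Ski and Skil. The genes were taken by name, as the core of the pathway, with earlier results of these data already known. The 12 RNA-Seq libraries came from donor T cells in the liver of lethally irradiated WT BALB/c mice, sorted 6 days after hematopoietic cell transplantation (HCT). In this MHC-mismatched model of graft-versus-host disease (GVHD), the study asked how STAT3 deficiency and PD-1 together shape the donor T cells that infiltrate tissues. Each recipient received T cell-depleted bone marrow from WT C57BL/6 mice together with C57BL/6 donor T cells of 1 of 3 genotypes. The WT group had both genes intact. The STAT3ko group carried Stat3 fl/fl with Cre under the CD4 promoter, so that Stat3 was recombined in CD4 and CD8 T cells alike. The STAT3ko PD-1ko group carried the same deletion on a germline PD-1-/- background. STAT3ko and STAT3ko PD-1ko T cells thus both lacked STAT3, and there was no group lacking PD-1 alone. Donor cells (H-2Kb+TCRβ+) were sorted into CD4+ and CD8+ T cells, giving 6 groups of 2 libraries. Each library pooled the lymphocytes of 3 recipients. The ages of the mice were not given in the sources used here.

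TGF-beta is made as a latent precursor, and once released it binds TGFBR2, which recruits and phosphorylates TGFBR1. TGFBR1 phosphorylates SMAD2 and SMAD3, and these enter the nucleus with SMAD4 to act on target genes, while SMAD7 blocks the receptor and SKI and SKIL hold SMAD complexes in a repressed state. In T cells the pathway is known for restraining proliferation and cytotoxic programs, for supporting the regulatory factor Foxp3, and for inducing the tissue-retention integrin CD103, which Itgae encodes.

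The label checks came first. Stat3 was at 369 and 467 CPM (counts scaled to a common library size with TMM factors) in the WT CD4 libraries, 139.9 and 164 in STAT3ko and 157 and 219 in STAT3ko PD-1ko. In CD8 libraries Stat3 was at 397 and 384 CPM in WT, 149 and 136 in STAT3ko and 154 and 235 in STAT3ko PD-1ko. Every WT library was thus above every library from the deleted genotypes, and the reads left in the deleted genotypes may lie outside the removed exons, which a count per gene cannot show. The log2 fold change of Stat3 in STAT3ko against WT was -1.46 in each subset (edgeR adjusted p = 0.0550 in CD4 and 0.108 in CD8). Pdcd1, which encodes PD-1, was at 247 and 235 CPM in WT CD4, 261 and 323 in STAT3ko and 55.1 and 26.0 in STAT3ko PD-1ko. Among CD8 libraries Pdcd1 was at 376 and 307 CPM in WT, 424 and 454 in STAT3ko, and 93.6 and 65.6 in STAT3ko PD-1ko. Both STAT3ko PD-1ko libraries of each subset were below all other libraries for Pdcd1.

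Markers of the sorted cells were present. The 6 T cell genes, the CD3 chains among them and Thy1 the highest in CPM in each library, summed to between 3367 and 4405 CPM in the 12 libraries. Their sum was lowest in STAT3ko PD-1ko in both subsets, at 3856 and 3735 CPM in CD4 and 3367 and 3424 in CD8. Of these 6 genes, Cd3d (log2 fold change -0.67, edgeR adjusted p = 0.0169) and Cd247 (-0.64, adjusted p = 0.0107) fell in STAT3ko PD-1ko CD8 T cells against WT, and none passed in CD4 T cells. Cd4 ranged from 1242 to 1887 CPM in the CD4 libraries and from 0.356 to 2.73 in the CD8 libraries. Cd8a ranged from 589 to 1339 CPM in the CD8 libraries and from 0.424 to 5.64 in the CD4 libraries. Subset markers moved with genotype too. Cd4, Zbtb7b and Cd40lg summed to 2201 and 2252 CPM in WT CD4, 2031 and 2249 in STAT3ko, and 1571 and 1395 in STAT3ko PD-1ko. Cd8a, Cd8b1 and Runx3 summed to 2466 and 2629 CPM in WT CD8, 2335 and 2625 in STAT3ko, and 1404 and 1437 in STAT3ko PD-1ko. Genes of other cell types were low. The 8 hepatocyte genes summed to at most 5.06 CPM, the 4 stellate cell genes to at most 0.508, the platelet genes to at most 2.18 and the endothelial genes to at most 2.66. The 4 B cell genes summed to at most 2.35 CPM in the CD4 libraries. In the CD8 libraries they summed to 14.7 and 10.7 CPM in WT, 12.6 and 13.8 in STAT3ko, and 6.01 and 5.22 in STAT3ko PD-1ko. Nearly all of this was Cd79b, which fell in STAT3ko PD-1ko CD8 T cells against WT (log2 fold change -1.18, edgeR adjusted p = 0.0149) and was higher in CD8 than in CD4 T cells in WT (2.86, adjusted p = 1.23e-04). Ms4a1, which encodes the B cell antigen CD20, had 0 counts in all 12 libraries. The NK cell genes, Ncr1 and Klrb1c, summed to between 10.2 and 56.3 CPM, with 22.9 and 11.2 in STAT3ko PD-1ko CD8 T cells against 29.3 to 56.3 in the other CD8 libraries. The 10 Kupffer cell and macrophage genes summed to between 8.30 and 12.02 CPM in replicate 2 of WT and STAT3ko in both subsets, and to between 0.691 and 1.79 in the other 8 libraries. The part of these cells, and of the T cell and subset markers, in the values below was not tested.

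Library depth ranged from 21676125 to 24551477 counts, and all 9 genes passed the filter on low counts, with 605 to 9341 counts per gene and library. The coefficient of variation between the 2 libraries of a group ranged from 0.559% for Smad2 in STAT3ko PD-1ko CD8 T cells to 65.9% for Smad7 in WT CD8 T cells. Levels of the 9 genes were compared with each other only as the deposited RPKM, which divides by a total exon length per gene. That length depends on the annotation. For Tgfb1 it was 2175 bases as deposited and 5042 in another mouse annotation, and for Smad4 7627 and 3712. The order below holds for the deposited lengths. Tgfb1 had the highest median RPKM over the 12 libraries, at 82.2 with a range of 63.0 to 93.7, and ranked first of the 9 in 11 libraries. Tgfbr2 followed at 58.0 (34.0 to 83.6). Smad3 at 24.7 (9.81 to 41.2), Ski at 23.04 (15.3 to 46.3), Smad4 at 18.2 (14.3 to 25.3), Skil at 16.3 (10.3 to 31.4) and Smad7 at 14.6 (9.03 to 31.9) formed a middle group. Smad2 at 9.40 (7.73 to 12.2) and Tgfbr1 at 6.22 (4.36 to 8.40) were eighth and ninth in all 12 libraries. Each gene's range overlapped that of its neighbor in this order. The receptor pair was therefore uneven in RNA, with Tgfbr2 at the 89.2 percentile of the tested genes and Tgfbr1 at the 40.3 percentile. Smad3 changed its place with genotype. It ranked between 3 and 5 in the 8 WT and STAT3ko libraries and 6 in all 4 STAT3ko PD-1ko libraries.

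Both genes whose RNA fell in every STAT3ko PD-1ko comparison below, Tgfbr2 and Smad3, lie on the minus strand of mouse chromosome 9. Tgfbr2 spans chr9:116087695-116175363 and Smad3 spans chr9:63646767-63757994 (mm10), so they are far apart. Neither is on the chromosome of Stat3 (11) or Pdcd1 (1), and no exon of the 9 genes shares bases with an exon of another gene in the GRCm38 annotation used here. The 250 bases before each start are shown because these genes moved together. They come from RefSeq (GRCm38.p6), at chr9:116175364-116175613 for Tgfbr2 and chr9:63757995-63758244 for Smad3, are written 5′ to 3′ on the minus strand, and carry the SMAD CAGA box (CAGAC) in capitals.
Tgfbr2 promoter: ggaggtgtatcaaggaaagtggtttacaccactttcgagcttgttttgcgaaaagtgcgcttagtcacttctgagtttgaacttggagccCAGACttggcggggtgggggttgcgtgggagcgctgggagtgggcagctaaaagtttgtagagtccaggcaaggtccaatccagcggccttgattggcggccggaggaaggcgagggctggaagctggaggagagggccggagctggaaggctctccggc
Smad3 promoter: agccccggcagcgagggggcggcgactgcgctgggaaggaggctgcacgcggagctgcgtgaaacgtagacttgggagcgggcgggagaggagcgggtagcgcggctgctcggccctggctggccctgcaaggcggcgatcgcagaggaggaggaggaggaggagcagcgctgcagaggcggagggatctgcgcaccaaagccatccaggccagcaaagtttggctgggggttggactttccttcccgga
Motifs were searched in longer windows that also took in bases past the start, chr9:116175314-116175613 for Tgfbr2 and chr9:63757945-63758244 for Smad3. The Tgfbr2 window held 1 CAGA box, 160 bases before the start, and the Smad3 window held none. Neither window held the STAT motif TTCNNNGAA or the SMAD palindrome GTCTAGAC on either strand. CAGAC occurs in 49.6% of the 32851 mouse promoter windows searched, TTCNNNGAA in 8.30% and GTCTAGAC in 0.213%, so these matches are a description of the letters and not of binding. Of the 250 bases shown, those of Smad3 were richer in CpG, with 22 CpG and 69.2% GC against 12 CpG and 58.4% GC for Tgfbr2. The medians over all windows were 6 CpG and 52.4% GC. The windows of Tgfb1 and Ski and the first Tgfbr1 window held none of the motifs, and a second Tgfbr1 window held 1 CAGA box. Smad2, Smad4 and Smad7 were left out of this search by choice, so their windows were not examined, and Skil had no entry.

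**Figure D1:**
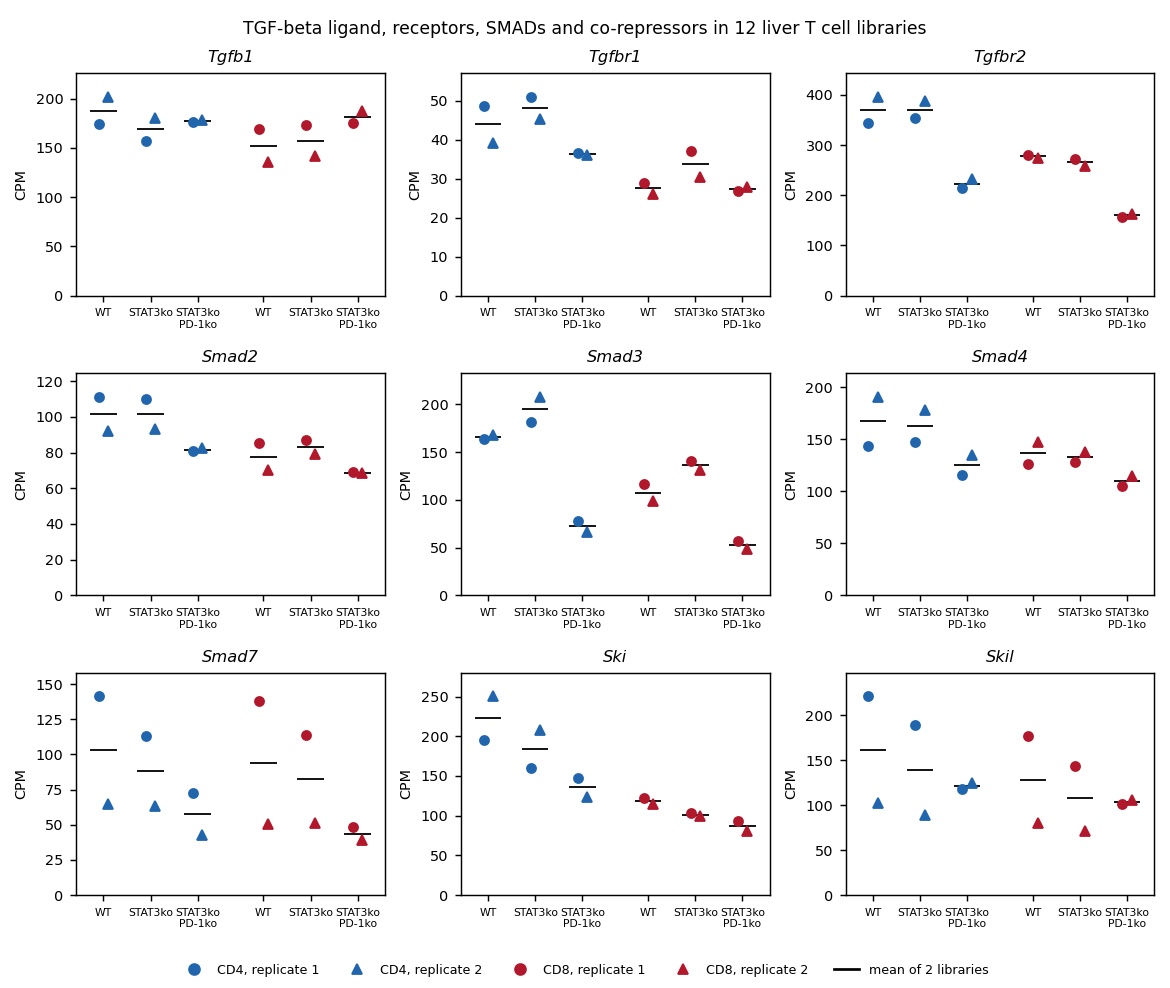
CPM (counts at a common library size, TMM-scaled) of the 9 genes in each of the 12 liver T cell libraries, with CD4 in blue, CD8 in red, circles for replicate 1, triangles for replicate 2, and a black bar at the mean of each pair. Smad3 and Tgfbr2 sit lowest in STAT3ko PD-1ko in both subsets, and Smad7 and Skil are split by replicate number in WT and STAT3ko.

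No change of the 9 genes was detected with STAT3 deficiency alone. In this comparison the edgeR test did not call the deleted Stat3 itself (adjusted p = 0.0550 in CD4 and 0.108 in CD8). A lack of calls here thus does not show that the genes were unchanged. In CD4 T cells, 0 of the 9 passed an adjusted p of 0.05 in STAT3ko against WT by the quasi-likelihood F test of edgeR (p adjusted by Benjamini-Hochberg), against 0.334% of all 11959 genes tested. At an unadjusted p under 0.05 the count was also 0 in CD4 T cells, and DESeq2 and limma called 0 of the 9. Likewise in CD8, 0 of the 9 passed, against 0.0583% of the 12002 genes tested, and DESeq2 and limma again called 0. The 1 gene at an unadjusted p under 0.05 in CD8 T cells was Smad3, with a log2 fold change of 0.34 (SE 0.13, edgeR adjusted p = 0.423). Smad3, the receptor-activated SMAD that binds DNA, was at 163 and 168 CPM in WT CD4 and 182 and 208 in STAT3ko CD4. It was at 116 and 98.3 CPM in WT CD8 and 141 and 131 in STAT3ko CD8. The STAT3ko libraries were above the WT libraries in both subsets, by less than the test could call. In this comparison 38.2% (CD4) and 43.6% (CD8) of all genes tested had groups without overlap. Tgfbr2 differed by a log2 fold change of 0.01 in CD4 (95% interval -0.34 to 0.35) and -0.06 in CD8 (-0.30 to 0.17), intervals that leave out a fall of the size given for Tgfbr2 in STAT3ko PD-1ko below.

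Some of the 9 genes passed the test in STAT3ko PD-1ko T cells. In CD4 T cells, Smad3 and Tgfbr2 were the 2 of 9 genes that fell against WT, where 12.9% of all genes tested were called, and the same 2 fell against STAT3ko, where 11.1% were called. In CD8 T cells, Tgfbr2, Smad3 and Ski fell against WT, making 3 of 9 where 17.2% of genes were called, and Tgfbr2 and Smad3 fell against STAT3ko, making 2 of 9 where 16.8% were called. None of the 9 rose in these 4 comparisons by edgeR. Whether these counts exceed the shares over all genes was not tested. Groups without overlap were common, at 59.2% of all genes tested in CD4 and 59.7% in CD8 T cells for STAT3ko PD-1ko against WT. Against STAT3ko the shares were 59.2% and 63.1%. A fit with the replicate number as a block called 5 of the 9 in CD4 T cells against WT, adding Smad4, Smad7 and Ski, and 3 against STAT3ko, adding Smad7, where it called 26% of all genes each time. In CD8 T cells the block gave 4 of 9 against WT (24.7% of genes called), adding Smad7, and 2 against STAT3ko (24.4%). The median log2 fold change of the 9 was -0.40 in CD4 and -0.31 in CD8 against WT, beside medians over all tested genes of -0.01 and 0.00. The comparisons with WT and with STAT3ko share their STAT3ko PD-1ko libraries, so they are given side by side and are not independent.

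Smad3 had the largest fall among the 9 that passed the test. Its level was 78.1 and 66.2 CPM in the STAT3ko PD-1ko CD4 libraries, below all 4 other CD4 libraries, which lay between 163 and 208. The log2 fold change was -1.18 against WT (SE 0.16, 95% interval -1.55 to -0.81, adjusted p = 0.00629 by edgeR), a 2.26-fold lower level. Against STAT3ko it was -1.42 (SE 0.16, adjusted p = 0.00693 by edgeR), 2.67-fold lower. Smad3 in CD8 T cells was at 56.4 and 48.4 CPM in STAT3ko PD-1ko, again below the other 4 libraries, at 98.3 to 141. The CD8 log2 fold change was -1.03 against WT (SE 0.14, 95% interval -1.35 to -0.70, adjusted p = 0.00651 by edgeR) and -1.37 against STAT3ko (SE 0.14, adjusted p = 0.00357). In these bulk samples, fewer cells that express a gene and less RNA per cell cannot be told apart.

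Tgfbr2, the receptor that binds the ligand first, fell less than Smad3, although the difference between these genes was not tested. It was at 344 and 396 CPM in WT CD4, 355 and 387 in STAT3ko CD4, and 214 and 231 in STAT3ko PD-1ko CD4. The CD8 levels of Tgfbr2 were 280.3 and 275 CPM in WT, 273 and 258 in STAT3ko, and 157 and 163 in STAT3ko PD-1ko. STAT3ko PD-1ko was below both other genotypes with no overlap in either subset, whereas WT and STAT3ko lay close together. The log2 fold change in CD4 T cells was -0.71 against WT (SE 0.15, 95% interval -1.06 to -0.36, edgeR adjusted p = 0.0237) and -0.72 against STAT3ko (SE 0.15, adjusted p = 0.0283). The CD8 values were -0.78 against WT (SE 0.10, edgeR adjusted p = 0.00595) and -0.72 against STAT3ko (SE 0.10, adjusted p = 0.00819), which correspond to 1.72-fold and 1.65-fold lower levels.

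These calls depended on single libraries. Without replicate 1 of the CD4 STAT3ko PD-1ko libraries, the edgeR adjusted p against WT was 0.0576 for Smad3 and 0.142 for Tgfbr2, with log2 fold changes of -1.29 and -0.65. Without replicate 2 they were 0.0798 and 0.131, at -1.08 and -0.78. Tgfbr2 also lost its call against WT without WT replicate 2 (adjusted p = 0.120) and against STAT3ko without STAT3ko replicate 2 (0.0953). Against STAT3ko, Smad3 and Tgfbr2 had adjusted p of 0.0519 and 0.125 without CD4 STAT3ko PD-1ko replicate 1, and 0.0990 and 0.178 without replicate 2. In CD8 T cells the calls were lost without STAT3ko PD-1ko replicate 2, where Smad3 and Tgfbr2 had edgeR adjusted p of 0.0672 and 0.0578 against WT and 0.0586 and 0.0710 against STAT3ko. That removal took the calls over all genes from 2066 to 111 against WT. Smad3 and Tgfbr2 were lower in STAT3ko PD-1ko in all of these fits.

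**Figure D2:**
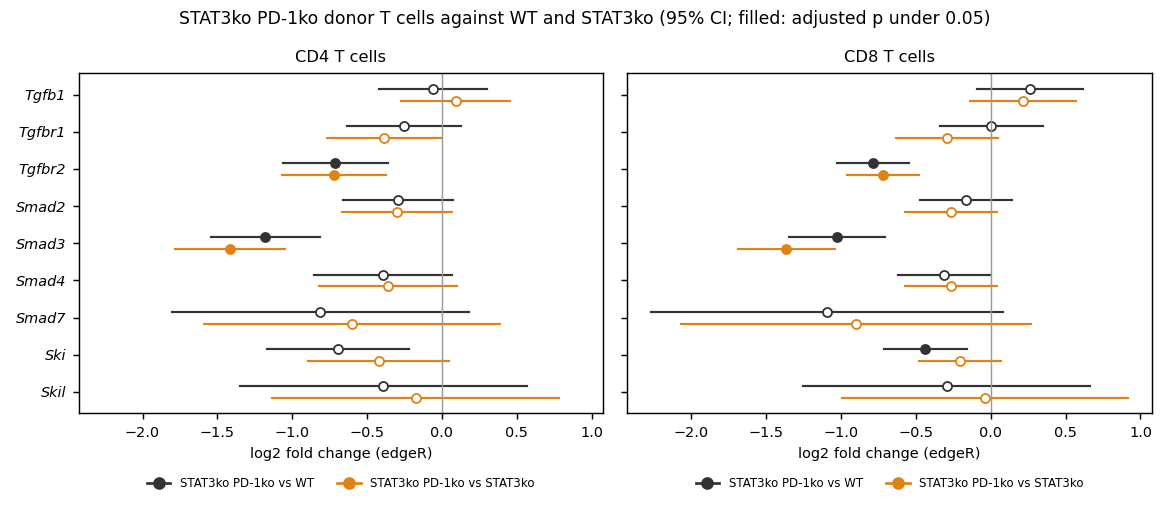
Log2 fold change (edgeR) of each of the 9 genes in STAT3ko PD-1ko against WT (black) and against STAT3ko (orange), in CD4 T cells on the left and CD8 T cells on the right, with 95% intervals and filled points where the adjusted p was under 0.05. The filled points are Tgfbr2 and Smad3 in both subsets and Ski in CD8 T cells against WT, at -0.44.

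The other signal transducers showed smaller differences. Tgfb1, which encodes the main TGF-beta ligand of immune cells, was at 176 and 179 CPM in STAT3ko PD-1ko CD4 against 174 and 202 in WT, and at 175 and 188 in STAT3ko PD-1ko CD8 against 169 and 136 in WT. Its log2 fold change against WT was -0.06 in CD4 (95% interval -0.42 to 0.30) and 0.26 in CD8 (-0.09 to 0.62), so the groups overlapped in CD4 and not in CD8. Tgfbr1, the kinase that phosphorylates SMAD2 and SMAD3, had log2 fold changes against WT of -0.25 in CD4 (edgeR adjusted p = 0.354) and 0.00 in CD8 (0.988). The Tgfbr1 interval in CD8 T cells, -0.34 to 0.35, leaves out a fall of the size seen for Tgfbr2. Smad2, the other receptor-activated SMAD, was at 80.7 and 82.6 CPM in STAT3ko PD-1ko CD4 against 111 and 92.1 in WT, with a log2 fold change of -0.29 (adjusted p = 0.269 by edgeR). The CD8 Smad2 log2 fold change was -0.17 (edgeR adjusted p = 0.420). Smad2 thus differed less than its paralog Smad3 in both subsets, although the difference between these genes was not tested. Smad4, the common partner SMAD, was at 116 and 134 CPM in STAT3ko PD-1ko CD4 against 144 and 191 in WT, and at 105 and 114 in CD8 against 126 and 148. Its log2 fold changes were -0.40 (edgeR adjusted p = 0.236) and -0.31 (adjusted p = 0.141), with no overlap between these groups, as for most genes, and no call. With the replicate number as a block, Smad4 passed in CD4 T cells (edgeR adjusted p = 0.0400) and was at 0.0604 in CD8 T cells.

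Ski, a co-repressor that binds SMAD complexes, declined from WT to STAT3ko PD-1ko. It was at 196 and 250.2 CPM in WT CD4, 160.0 and 208 in STAT3ko, and 148 and 124 in STAT3ko PD-1ko. The CD8 levels of Ski were 122 and 115 CPM in WT, 103 and 99.0 in STAT3ko, and 92.7 and 81.0 in STAT3ko PD-1ko. STAT3ko PD-1ko lay below both other genotypes in both subsets. The fall against WT passed the test in CD8 T cells (log2 fold change -0.44, SE 0.12, edgeR adjusted p = 0.0443) and missed it in CD4 T cells (-0.69, SE 0.20, adjusted p = 0.0648), where it passed with the replicate block (-0.68, edgeR adjusted p = 0.0224). The CD8 call for Ski was lost when any of the 4 libraries compared was left out, at edgeR adjusted p of 0.163 and 0.119 without WT replicates 1 and 2 and 0.0677 and 0.171 without STAT3ko PD-1ko replicates 1 and 2.

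Smad7 and Skil, which TGF-beta itself induces and which feed back on the pathway, varied widely between replicates. Smad7 was at 141 CPM in replicate 1 and 64.4 in replicate 2 of WT CD4, at 113 and 63.6 in STAT3ko, and at 72.8 and 42.5 in STAT3ko PD-1ko. Smad7 in CD8 T cells was at 138 and 50.2 CPM in WT, 114 and 51.2 in STAT3ko, and 48.6 and 38.9 in STAT3ko PD-1ko. Replicate 1 was above replicate 2 in all 6 groups, by ratios of 1.25 to 2.75. Against WT, the log2 fold change of Smad7 in STAT3ko PD-1ko was -0.81 in CD4 (SE 0.43, edgeR adjusted p = 0.259) and -1.09 in CD8 (SE 0.50, adjusted p = 0.172). With the replicate block Smad7 passed against WT in both subsets, at -0.76 in CD4 (edgeR adjusted p = 0.00545) and -0.92 in CD8 (0.0409), and against STAT3ko in CD4 (-0.59, adjusted p = 0.0160). The block assumes a replicate shift that the genotypes share, whereas the Smad7 ratio was 2.75 in WT CD8 and 1.25 in STAT3ko PD-1ko CD8. Compared within the same replicate number, Smad7 was lower in STAT3ko PD-1ko than in WT in all 4 pairs, by log2 differences of -0.96 and -0.60 in CD4 and -1.51 and -0.37 in CD8. Skil, the SKI-like co-repressor, behaved otherwise. It was at 221 and 103 CPM in WT CD4, 189.5 and 88.8 in STAT3ko, and 118 and 125 in STAT3ko PD-1ko, and at 177 and 79.7, 144 and 71.5, and 102 and 106 in the same order in CD8. The 2 STAT3ko PD-1ko libraries of each subset lay close together and between the 2 libraries of WT and of STAT3ko. Skil in STAT3ko PD-1ko was therefore below WT in replicate 1 (log2 difference -0.91 in CD4 and -0.80 in CD8) and above WT in replicate 2 (0.28 and 0.41). The replicate block left Skil without a call against WT, at -0.25 in CD4 (edgeR adjusted p = 0.519) and -0.16 in CD8 (0.710).

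Other genes were split by replicate number too. Immediate early genes, which rise within minutes of stimulation or cell handling, were examined after the values of Smad7 and Skil had been seen. Of 7 such genes, 6 were higher in replicate 1 in all 6 groups, and Egr1 in 5, with a ratio of 0.979 in STAT3ko PD-1ko CD8 T cells. Among all 12334 genes tested, 9.68% were higher in replicate 1 in all 6 groups and 10% were lower. Fosb, a subunit of AP-1, gave ratios of replicate 1 to replicate 2 of 3.06 to 7.58. Dusp1, a phosphatase that acts on MAP kinases, gave ratios of 3.83 to 7.10 and Junb 1.70 to 4.72. Fosb was at 472 and 103 CPM in WT CD4 and at 107 and 34.9 in STAT3ko PD-1ko CD4, and Junb at 1071 and 332 against 370.0 and 190.5. In STAT3ko PD-1ko, replicate 1 of Fosb was close to replicate 2 of WT in CD4 T cells. Smad4 went the other way, with replicate 1 below replicate 2 in all 6 groups, by ratios of 0.754 to 0.928. Smad3 and Tgfbr2 were not split in this way, at replicate ratios of 0.873 to 1.19 and 0.870 to 1.06. The labels do not say what the replicate number stands for.

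**Figure D3:**
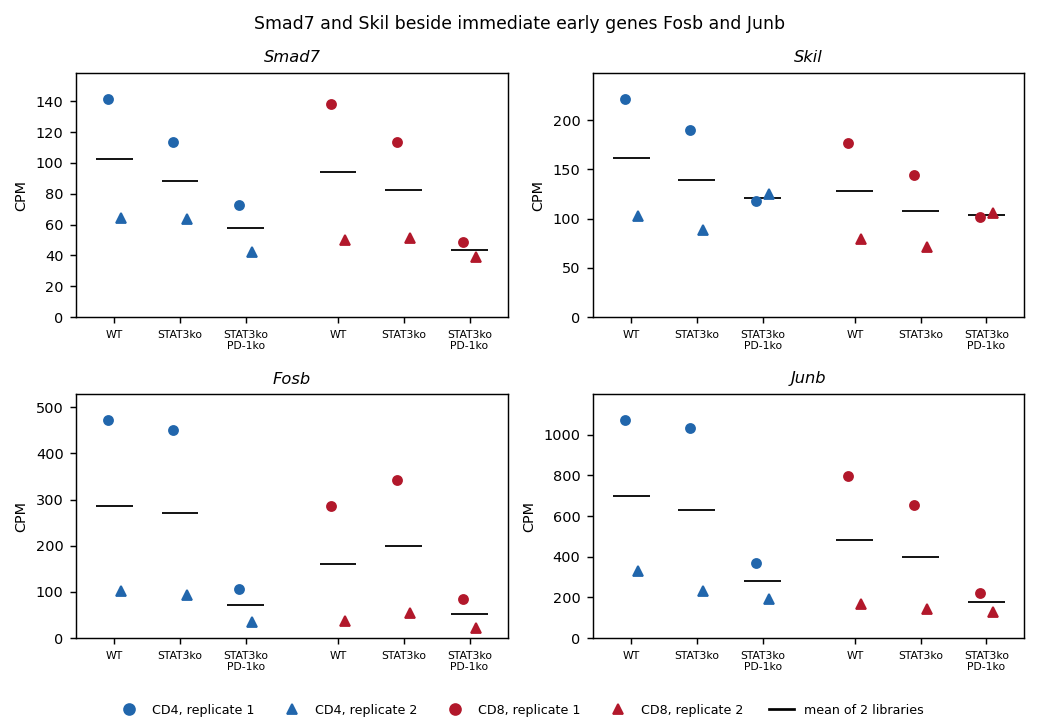
CPM (TMM-scaled) of Smad7, Skil, Fosb and Junb in each library, with CD4 in blue, CD8 in red, circles for replicate 1, triangles for replicate 2 and black bars at the means. In WT and STAT3ko each circle lies above its triangle for all 4 genes, as for Smad7 at 141 and 64.4 CPM in WT CD4, and the Skil symbols of STAT3ko PD-1ko lie close together, at 118 and 125 CPM in CD4.

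CD8 T cells carried less RNA for several of the 9 genes than CD4 T cells from the same donors. In WT, 4 of the 9 fell in CD8 against CD4 by edgeR, where 10.5% of 12334 genes were called, namely Ski, Tgfbr1, Smad3 and Tgfbr2. In STAT3ko, Ski, Smad3 and Tgfbr2 fell, 3 of 9 where 9.62% were called, and in STAT3ko PD-1ko Tgfbr2 fell, 1 of 9 where 4.14% were called. None rose. The medians of the 9 log2 fold changes were -0.39, -0.37 and -0.40 in WT, STAT3ko and STAT3ko PD-1ko, beside 0.00, -0.01 and 0.01 over all genes tested. Ski had the largest subset difference, at a log2 fold change of -0.91 in WT (SE 0.17, edgeR adjusted p = 0.00709), -0.87 in STAT3ko (adjusted p = 0.0104) and -0.65 in STAT3ko PD-1ko (adjusted p = 0.0659). In WT T cells, Ski was thus 1.88-fold lower in CD8 than in CD4, and all 6 CD8 libraries, at 81.0 to 122 CPM, lay below all 6 CD4 libraries, at 124 to 250.2. CD8 and CD4 groups did not overlap for 48.1%, 47.5% and 46.5% of all genes tested in WT, STAT3ko and STAT3ko PD-1ko. Tgfbr1 was at 29.0 and 26.0 CPM in WT CD8 against 48.7 and 39.3 in WT CD4, a log2 fold change of -0.68 (SE 0.15, edgeR adjusted p = 0.0175). Tgfbr2 passed the test in all 3 genotypes, at log2 fold changes of -0.41, -0.48 and -0.48 and edgeR adjusted p of 0.0424, 0.0244 and 0.0438. The Tgfbr2 call was lost with total count scaling and with no filter on low counts in WT (edgeR adjusted p = 0.0649 and 0.0857) and in STAT3ko PD-1ko (0.0693 and 0.0710). The intervals for Tgfb1 reached from -0.64 to 0.04 in WT and from -0.31 to 0.37 in STAT3ko PD-1ko, and Tgfb1 was not called in any genotype.

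CD4 and CD8 T cells of 1 pool came from the same livers, so the subset comparison was also fitted with the pool as a block. Which libraries share a pool was taken from the genotype and replicate number. With this replicate block, 7 of the 9 genes passed in WT, 7 in STAT3ko and 4 in STAT3ko PD-1ko, each lower in CD8, while the calls over all genes rose to 2991, 3077 and 1774 (24.3%, 24.9% and 14.4%). The added genes in WT were Smad2 (edgeR adjusted p = 0.00807), Skil (0.0121) and Smad4 (0.0492). In STAT3ko PD-1ko, Ski, Tgfbr1 and Smad3 joined Tgfbr2 under the block, at edgeR adjusted p of 0.0148, 0.0219 and 0.0228. Skil, split by replicate number in WT and STAT3ko, gained its call only in fits that held the pool fixed. Without the block, the subset calls were sensitive to single libraries. In WT, 1 gene was called without CD4 replicate 1, 1 without CD4 replicate 2, 2 without CD8 replicate 1 and 0 without CD8 replicate 2. In STAT3ko, 2 genes were called without CD4 replicate 1 and 0 without CD4 replicate 2 or either CD8 replicate, and in STAT3ko PD-1ko 0 were called when any library was left out.

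**Figure D4:**
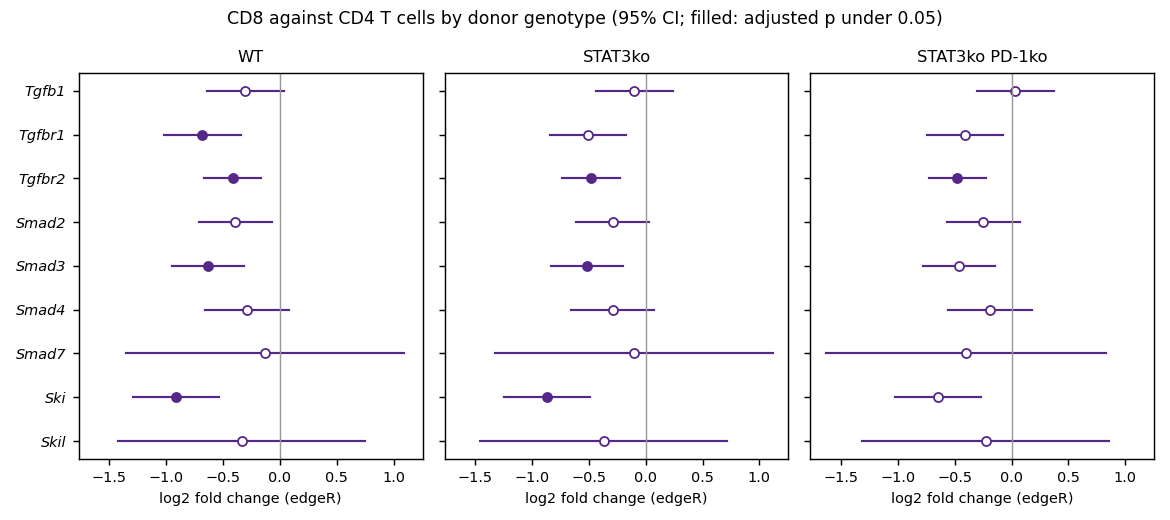
Log2 fold change (edgeR) of CD8 against CD4 T cells for the 9 genes in WT, STAT3ko and STAT3ko PD-1ko, with 95% intervals and filled points where the adjusted p was under 0.05. Filled points lie to the left of 0 for Tgfbr1, Tgfbr2, Smad3 and Ski in WT, for Tgfbr2, Smad3 and Ski in STAT3ko, and for Tgfbr2 in STAT3ko PD-1ko.

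The genotype effects were not shown to differ between CD4 and CD8 T cells. By edgeR's interaction test, 0 of the 9 genes passed for STAT3ko against WT (0% of all genes called), 0 for STAT3ko PD-1ko against WT (0.00811% called) and 0 for STAT3ko PD-1ko against STAT3ko (0% called). At an unadjusted p under 0.05 the count of the 9 was 0 in each, and DESeq2 and limma called 0 of the 9. The difference between subsets was 0.17 on the log2 scale for Smad3 (95% interval -0.28 to 0.61) and -0.06 for Tgfbr2 (-0.42 to 0.29) in STAT3ko PD-1ko against WT. A difference in the Tgfbr2 effect as large as the effect itself in CD8 T cells, -0.78, lies outside that interval, whereas for Smad7 the interval from -2.00 to 1.46 allows almost any difference.

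Other genes of the pathway were read from 7 lists of 79 genes, of which 67 were tested for CD4 and 66 for CD8 T cells. In STAT3ko against WT, 0 of them passed the edgeR test in either subset, where 0.334% (CD4) and 0.0583% (CD8) of all genes tested were called. At an unadjusted p under 0.05 there were 12 of 67 and 11 of 66, beside 1259 of 11959 and 1315 of 12002 genes in all, with 0 called by limma and 5 and 3 by DESeq2 (Gzma, Gzmb and Klrg1 in both subsets, with Acvr2a and Tgfb3 in CD4). In STAT3ko PD-1ko against WT, 5 rose and 8 fell in CD4 T cells, and 7 rose and 7 fell in CD8 T cells, where 12.9% and 17.2% of all genes tested were called, with medians of -0.14 and 0.00 beside -0.01 and 0.00 over all genes. Against STAT3ko, 8 rose and 6 fell in CD4 (11.1% of all genes called) and 9 rose and 5 fell in CD8 (16.8%). Among ligands and activators, 2 of 9 passed in CD4 against WT and 2 of 8 in CD8. Tgfb3, a further TGF-beta isoform, fell in CD4 T cells from 18.4 and 17.9 CPM in WT to 3.29 and 2.14 in STAT3ko PD-1ko, with 7.06 and 7.47 in STAT3ko (log2 fold change -2.72 against WT, adjusted p = 0.00312 by edgeR). Tgfb3 also fell in CD8 T cells, from a far lower level of 2.27 and 2.36 CPM (log2 fold change -1.70, edgeR adjusted p = 0.0177). The other CD8 call against WT in this list, Furin, rose (0.90, edgeR adjusted p = 0.0391). Tgfb2 rose in CD4 T cells, but it stayed under 1 CPM in every library. Among other receptors of the family, 2 of 6 passed in CD4 and 2 of 8 in CD8. The activin receptor Acvr2a fell in CD4 T cells from 7.46 and 12.8 CPM to 0.909 and 1.59 (log2 fold change -2.99, edgeR adjusted p = 0.00842), whereas the TGF-beta co-receptor Tgfbr3 rose from 6.46 and 9.10 to 15.8 and 19.1 (1.19, adjusted p = 0.0482). In CD8 T cells the BMP receptor Bmpr2 rose (1.08, edgeR adjusted p = 0.0165) and the activin receptor Acvr1b fell (-1.17, adjusted p = 0.0183).

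Further SMADs and cofactors, turnover genes and the non-SMAD branch held at most 2 calls a list in STAT3ko PD-1ko against WT, where 12.9% of all genes tested were called in CD4 T cells and 17.2% in CD8 T cells. In CD4 T cells 0 of 9 further SMADs and cofactors passed by edgeR, DESeq2 or limma, with 0 at an unadjusted p under 0.05, and in CD8 T cells 1 of 10 did, Zfyve9, which presents SMADs to the receptor and had 0 and 1 counts in WT and 15 and 18 in STAT3ko PD-1ko. Of 16 turnover genes and inhibitors, 1 passed in CD4 T cells and 2 in CD8 T cells, with list medians of -0.05 and 0.04. Ldlrad4, which keeps SMAD2 and SMAD3 from the receptor, fell in CD4 T cells from 7.68 and 8.98 CPM to 3.03 and 2.30 (log2 fold change -1.62, edgeR adjusted p = 0.00939). Of the CD8 calls, Pmepa1, an inhibitor that TGF-beta induces, fell (-1.92, edgeR adjusted p = 0.0235) and the deubiquitinase Uchl5 rose (0.74, adjusted p = 0.00951). None of the 6 non-SMAD genes, such as the kinase Map3k7, passed by edgeR, DESeq2 or limma in the 4 STAT3ko PD-1ko comparisons, and by edgeR 1 was at an unadjusted p under 0.05, in CD8 T cells against WT.

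Several genes that TGF-beta is known to induce in T cells fell. In STAT3ko PD-1ko against WT, 3 of 10 passed in CD4 T cells, all lower, with a list median of -0.68, and 4 of 8 passed in CD8 T cells, 3 of them lower, with a list median of -1.06. Over all genes tested, 12.9% were called in CD4 and 17.2% in CD8 T cells, and the medians were -0.01 and 0.00. Itgae was at 6.55 and 7.54 CPM in WT CD4, 4.14 and 4.18 in STAT3ko and 1.13 and 1.23 in STAT3ko PD-1ko. It was at 4.23 and 6.39 CPM in WT CD8, 2.68 and 3.03 in STAT3ko and 0.663 and 0.776 in STAT3ko PD-1ko. The 3 genotypes did not overlap in either subset, and the log2 fold change of Itgae in STAT3ko PD-1ko against WT was -2.55 in CD4 (edgeR adjusted p = 0.00389) and -2.87 in CD8 (adjusted p = 0.00493). Groups without overlap made up 38.2% (CD4) and 43.6% (CD8) of all genes tested for STAT3ko against WT. For STAT3ko PD-1ko they made up 59.2% and 59.7% against WT, and 59.2% and 63.1% against STAT3ko. Foxp3, the master factor of regulatory T cells, was at 20.96 and 30.7 CPM in WT CD4, 16.3 and 25.1 in STAT3ko and 3.38 and 3.42 in STAT3ko PD-1ko (log2 fold change against WT -2.91, edgeR adjusted p = 0.00395). In CD8 libraries Foxp3 fell from 23.8 and 13.7 CPM to 7.29 and 8.94 (-1.19, edgeR adjusted p = 0.0458), and since few CD8 T cells are known to express Foxp3, fewer regulatory cells and less RNA per cell cannot be told apart here. Of the genes of this list that passed against WT, the chemokine receptor Ccr8 was the 1 that rose, in CD8 T cells, from 4.31 and 2.48 CPM to 15.9 and 9.96 (log2 fold change 1.94, edgeR adjusted p = 0.0128). Cdkn2b, a cell cycle inhibitor named here after its values were seen, had positive log2 fold changes that did not pass, at 1.44 in CD4 (edgeR adjusted p = 0.0821) and 1.00 in CD8 (0.447).

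Genes that TGF-beta is known to repress moved in both directions against WT. Against STAT3ko, 3 of 13 passed in CD4 T cells, all higher (Cdc25a, Eomes and Prf1), where 11.1% of all genes tested were called. In CD8 T cells 3 of 12 passed against STAT3ko, 1 higher and 2 lower, where 16.8% were called. In CD4 T cells 6 of 13 passed in STAT3ko PD-1ko against WT, 3 higher and 3 lower, and in CD8 T cells 4 of 12, 2 higher and 2 lower, beside 12.9% and 17.2% of all genes, with list medians of -0.16 and -0.29 beside -0.01 and 0.00. Cdc25a, a phosphatase that drives cells into S phase, rose in both subsets, from 33.7 and 37.0 CPM in WT CD4 to 66.2 and 61.5 (log2 fold change 0.87, edgeR adjusted p = 0.0135), and from 41.5 and 36.9 in WT CD8 to 72.3 and 70.1 (0.87, adjusted p = 0.00922). Eomes, a transcription factor of cytotoxic and memory cells, rose in CD4 T cells from 3.46 and 2.88 CPM to 7.79 and 8.66 (1.40, edgeR adjusted p = 0.0158). Prf1, which encodes perforin, also rose in CD4 T cells, from 72.9 and 81.5 CPM to 166 and 107 (0.84, edgeR adjusted p = 0.0435). In CD8 T cells Eomes and Prf1 had negative log2 fold changes that did not pass (-0.49 and -0.29, edgeR adjusted p = 0.0670 and 0.313). Gzma fell in both subsets and Gzmb in CD8 T cells. Gzma, which encodes granzyme A, was at 363 and 231 CPM in WT CD4, 162 and 119.7 in STAT3ko and 94.3 and 94.2 in STAT3ko PD-1ko. Gzma in CD8 T cells was at 2205 and 2013 CPM in WT, 897 and 1104 in STAT3ko and 593 and 455 in STAT3ko PD-1ko (log2 fold change against WT -2.00, edgeR adjusted p = 0.00224). Gzmb, which encodes granzyme B, fell in CD8 T cells from 5213 and 4207 CPM in WT to 2189.5 and 1735 (-1.25, edgeR adjusted p = 0.00529), where STAT3ko was at 2217 and 1846. In CD4 T cells Gzmb was at 1349 and 898 CPM in WT, 521 and 306 in STAT3ko and 872 and 722 in STAT3ko PD-1ko, a log2 fold change of -0.47 against WT (edgeR adjusted p = 0.311) and 0.97 against STAT3ko (adjusted p = 0.0666). The levels of Gzma and Gzmb in STAT3ko lay below WT as well, where neither passed the edgeR test and both passed by DESeq2 in each subset. Il2 was at 5.32 and 5.00 CPM in WT CD4, 2.26 and 1.07 in STAT3ko and 2.08 and 0.993 in STAT3ko PD-1ko. It fell in STAT3ko PD-1ko against WT (-1.73, edgeR adjusted p = 0.0452), and the log2 fold change was -1.63 in STAT3ko against WT (adjusted p = 0.238) and -0.10 between the deleted genotypes (adjusted p = 0.908).

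**Figure D5:**
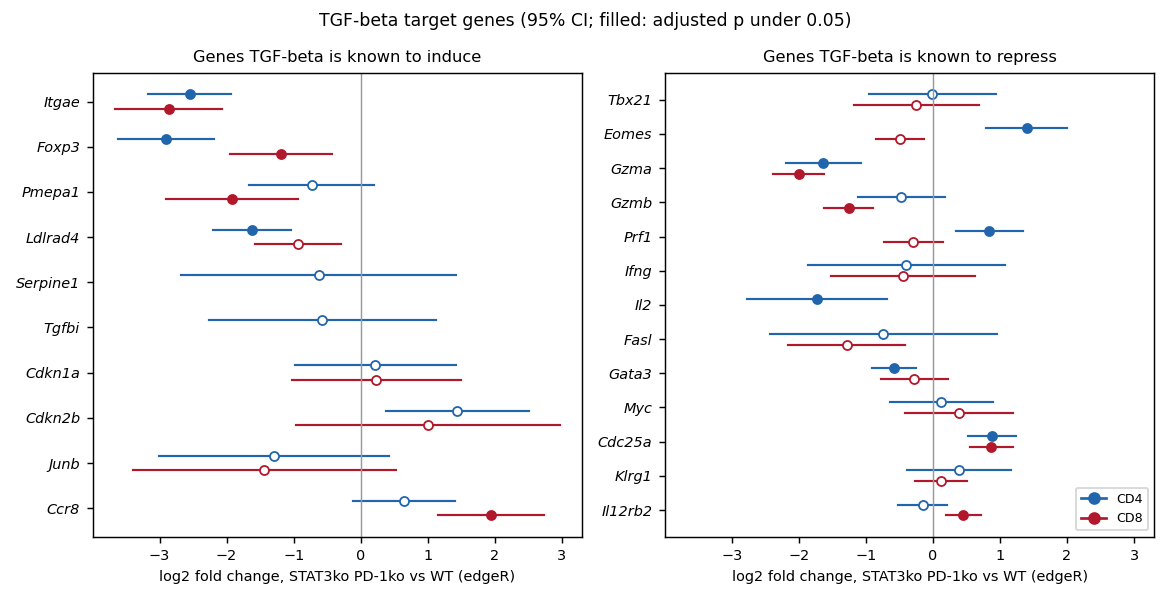
Log2 fold change (edgeR) of STAT3ko PD-1ko against WT for genes that TGF-beta is known to induce (left) and to repress (right) in T cells, with CD4 in blue, CD8 in red, 95% intervals and filled points where the adjusted p was under 0.05. Itgae and Foxp3 are filled and left of 0 in both subsets on the left, and Gzma (-1.63 and -2.00) and Cdc25a (0.87 and 0.87) are filled on opposite sides of 0 on the right.

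The genes whose levels followed each of the 9 most closely were found by Pearson r of log2 CPM over the 12 libraries, after each subset was centered on its mean, among 11690 genes. These r are descriptions, since the 12 points share libraries, depth and the genotype groups. Tgfbr2 was followed most closely by Mbp (r = 0.995), Prkcb (0.989), which encodes protein kinase C beta, and the sorting receptor Sorl1 (0.986). Genes close to Smad3 included Lats2 (r = 0.992), a kinase of the Hippo pathway, and Ube2h (0.989). Among the 9 genes, Tgfbr2 and Smad3 gave the highest r, 0.947 over the 12 libraries. Smad7 was followed by Kdm6b (r = 0.990), a histone demethylase, Cebpb (0.985) and Ier2 (0.980), and all of these were higher in replicate 1 than in replicate 2 in all 6 groups. Skil was followed by Sde2 (r = 0.988), Slc3a2 (0.983), which encodes the CD98 heavy chain, and Clta (0.981). Smad7 and Skil gave r = 0.806 with each other. Smad4 and Skil, whose replicates split in opposite directions in WT and STAT3ko, gave r = -0.344. The first genes for the other members were Adpgk for Tgfb1 (r = 0.958), 3110056K07Rik for Tgfbr1 (0.941), Rab33b for Smad2 (0.973), Lrch3 for Smad4 (0.981) and Wbp1l for Ski (0.964).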

How the data were processed

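RNA-Seq libraries were made from donor CD4 and CD8 T cells sorted from recipient liver (12 libraries, 51 base single-end reads). Per the study's methods, the authors aligned reads with STAR to mm10 and counted them per RefSeq gene with HTSeq-count. The deposited counts per gene were used as deposited, and the deposited RPKM values of the authors served only to compare levels between genes. The labels name another library kit than the study's methods, and a growth protocol in the labels describes other cells. Whether counting used strand was not given in the sources used here.

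Counts were tested with edgeR 4.0.16 (R 4.3.3): TMM scaling, filterByExpr (minimum count 10, minimum total 15), quasi-likelihood F tests, and Benjamini-Hochberg adjustment over all genes tested, with 0.05 as the threshold. Genotypes were compared within a subset over 6 libraries (3 residual degrees of freedom); CD8 against CD4 and the interactions used all 12 (6 degrees of freedom). Each library pools 3 recipients, so p-values measure the spread between such pools. An exact permutation test of 2 against 2 libraries cannot go below p = 0.333, so no such test was used. Levels are CPM with the TMM factors of the 12 libraries. The tests were tried on simulated counts. Alternatives were DESeq2 1.42.0, limma 3.58.1 on log2(RPKM + 1), total count scaling, other filters on low counts, the replicate block, the 4 libraries compared alone, and leaving out each library.

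Pairing was checked by correlating, across 11691 genes, the deviations of libraries from their group means. CD4 and CD8 libraries of the same genotype and number gave r = 0.624 in WT, 0.613 in STAT3ko and 0.706 in STAT3ko PD-1ko, and the study's methods place them in the same livers, so the number pairs them.

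The 9 genes and all gene lists were chosen with earlier results of these data known. The named genes are the 9, Stat3 and Pdcd1, up to 3 called genes of each pathway list with the largest change in each genotype comparison, the marker genes, and the 3 genes closest to each of the 9, not all of which are reported here. The lists hold ligands and activators, other receptors, other SMADs and cofactors, turnover genes and inhibitors, the non-SMAD branch, and genes TGF-beta induces or represses in T cells. Of their 79 genes, 78 were found by symbol, and Ctgf, listed as Ccn2, had 0 to 5 counts.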

Additional observations from a re-analysis of the deposited data

How the results depend on the processing

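Of 108 estimates (9 genes in 12 comparisons), the 17 that were called kept their sign under every alternative run, and 43 of the 91 that were not called changed sign in at least 1. With settings that kept all libraries, reversed values included Tgfb1 in CD4 STAT3ko PD-1ko against WT with total count scaling (6.56e-05), Tgfbr1 in CD8 against WT with DESeq2 (-0.0084) and with no filter (-0.012), and Skil in CD8 against STAT3ko with total count scaling (0.049), the replicate block (0.082) and limma (0.047). Leaving out 1 library, where the lone library left is assumed to vary like the other groups, moved Skil in STAT3ko PD-1ko against WT between -0.85 and 0.25 in CD4 and -0.77 and 0.38 in CD8, and against STAT3ko between -0.62 and 0.45 and between -0.46 and 0.54. In CD8 against CD4 it moved Skil between -1.02 and 0.33 in WT and -0.95 and 0.26 in STAT3ko, and Smad7 between -1.03 and 0.55 in WT, -0.78 and 0.35 in STAT3ko and -0.73 and 0.035 in STAT3ko PD-1ko. Tgfb1 moved between -0.17 and 0.049 in CD4 STAT3ko PD-1ko against WT, -0.020 and 0.21 against STAT3ko, and, in CD8 against CD4, -0.25 and 0.022 in STAT3ko and -0.024 and 0.091 in STAT3ko PD-1ko. Tgfbr1 in CD8 STAT3ko PD-1ko against WT moved between -0.085 and 0.074. The counts of the 9 genes called ranged, leaving out 1 library, from 0 to 2 in STAT3ko PD-1ko against WT in CD4, 0 to 3 in CD8, 0 to 2 against STAT3ko in either subset, and in CD8 against CD4 from 0 to 2 in WT, 0 to 2 in STAT3ko and 0 in STAT3ko PD-1ko. In CD8 against CD4 in STAT3ko PD-1ko, where 1 was called, DESeq2 called 2 and total count scaling and a minimum of 10 counts in every library each called 0. The Ski call in CD8 STAT3ko PD-1ko against WT was also lost with total count scaling (adjusted p = 0.0687), no filter (0.0508), limma (0.0647) and the 4 libraries alone (0.0736), all by the tools named, and the Smad3 call in CD8 against CD4 in STAT3ko with limma (0.0630). The cause was not tested.

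Within a subset the genotype groups share replicate numbers, and same-numbered libraries of WT and STAT3ko deviated together (r = 0.687 in CD4 and 0.696 in CD8). STAT3ko PD-1ko followed WT and STAT3ko less, at r = 0.338 and 0.198 in CD4 and 0.177 and 0.0518 in CD8. Within a subset the block assumes 1 shift between replicate numbers that all 3 genotypes share. With the replicate block, 5 of the 9 were called in CD4 STAT3ko PD-1ko against WT (Ski, Smad3, Smad4, Smad7 and Tgfbr2), 3 against STAT3ko, 4 and 2 in CD8, and 7, 7 and 4 in CD8 against CD4 in WT, STAT3ko and STAT3ko PD-1ko; it changed no other count of the 9.

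Counts over all genes moved as well. STAT3ko against WT gave 40 in CD4, with DESeq2 264, no filter 165, the block 303 and the 4 libraries alone 1, and 7 in CD8, with 203, 66, 9 and 0, and 1 with total count scaling, 1 with a minimum of 10 counts and 3 with limma. STAT3ko PD-1ko in CD4 gave 1538 against WT (3104 with the block) and 1324 against STAT3ko (2058 with DESeq2, 3105 with the block). Leaving out 1 library gave 62 to 676 and 0 to 1185 in CD4, 111 to 1107 and 2 to 1194 in CD8, 9 to 49 and 0 to 2 for STAT3ko against WT, and 611 to 819, 428 to 775 and 163 to 200 in CD8 against CD4, where the full counts were 1294, 1187 and 511. The interactions gave 0, 1 and 0 genes, and 3, 75 and 18 with DESeq2, 0, 50 and 9 with no filter, 0, 84 and 22 with the block and 8, 46 and 6 with limma. With 2 libraries in a group, the spread between libraries rests on few values. The lowest count of the 9 in a library was 605, and what greater depth would change was not tested.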
